A study of Mus musculus with 7 samples.

Results

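Of 50600 rows of gene counts, 1110 have a symbol that is Olfr followed by digits, and 134 of these lie on mouse chromosome 9. Each row is called an olfactory receptor gene here, though the 2 rows named Olfr908 share the same coordinates. The 134 were chosen by symbol and location, with no measured value in the rule but with earlier results of these data known. They lie in 2 clusters, 36 genes that start below 30 Mb and 98 that start above it, and their levels are given here for 3 genotypes of whole olfactory epithelium dissected at postnatal day 7. Amigo1neo/neo mice (neo, 3 libraries) have their Amigo1 coding sequence replaced by a neomycin cassette. Amigo1-/- mice (KO, 3 libraries) lack Amigo1, a neuronal adhesion protein with leucine-rich repeats, and are labelled knockouts without mention of the cassette. The last genotype, Amigo1+/+ (WT), is 1 library. The labels give no strain, sex or cassette promoter and do not say that each library is a separate animal, so p-values measure only the spread between these samples, which may be in part technical. The study's title asks whether the cassette itself alters expression, which is the comparison of neo with KO.

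Olfactory receptors are G protein-coupled receptors that bind odorants on the cilia of olfactory sensory neurons. Each mature neuron expresses 1 receptor gene, from 1 of its alleles, so in bulk epithelium the level of a receptor gene follows both the number of neurons that chose it and the RNA per neuron, and the data cannot tell these apart. The chosen receptor activates the olfactory G protein, adenylyl cyclase and a cyclic nucleotide-gated channel, and it also guides the axon to its glomerulus. Receptor genes sit in tandem arrays that grew by duplication, and most have an uninterrupted coding exon behind 1 or more untranslated exons.

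Each library held 14879415 to 21343058 counts in gene rows, of which the chromosome 9 receptor genes took 12066, 7453 and 6526 in neo, 6968, 6049 and 5653 in KO and 8391 in WT. Amigo1 had 11, 5 and 1 counts in neo, 0, 8 and 16 in KO and 744 in WT, in the direction of the labels. Xist, which is made from the inactive X chromosome of females, had 26883 counts in neo replicate 1 and 13995 in WT, and at most 78 in the other libraries, so the genotypes are not matched for sex. A number that looks like a date, and a short code, in the library names are the same for KO and WT and different for neo, so they cannot be told apart from genotype. Markers of mature olfactory neurons, the cells that express receptors, were abundant in all libraries and summed to 3643 to 4108 CPM (counts scaled to a common library size) in neo, 3109 to 3495 in KO and 3579 in WT.

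The clusters differ in size and spacing. The cluster nearer the centromere ran from Olfr24 (chr9:18751507-18763996) to Olfr18 (chr9:20312152-20336094) over 1585 kb of GRCm38, with a median of 39.5 kb from one gene start to the next. The cluster farther away ran from Olfr160 (chr9:37708964-37716250) to Olfr986 (chr9:40180920-40190134) over 2481 kb, with a median step of 22.1 kb. Between them, 17.4 Mb held no member. Genes of both orientations were mixed, with 22 on the plus and 14 on the minus strand in the smaller cluster and 65 and 32 in the larger one. GENCODE vM21 held 133 of the 134 identifiers, all at the coordinates of the files. The symbols were less stable. Olfr908 and Olfr912 each name 2 rows, and the row ENSMUSG00000060114 that the files call Olfr912 is Olfr910 in GENCODE. The 2 Olfr908 rows share coordinates, while the Olfr912 rows are separate loci. The row ENSMUSG00000057444 that the files call Olfr910 is Olfr915 in GENCODE. GENCODE types that row, Olfr151, Olfr936 and 1 row of Olfr908 as polymorphic pseudogenes, apart from its protein-coding genes. The other Olfr908 row is a pseudogene in the submitters' annotation.

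Sequence relatedness followed the clusters. Each coding sequence was compared with those of all other receptor genes, and for 35 of 36 genes of the smaller cluster the nearest relative lay in that cluster. The exception was Olfr24, the first gene of the cluster, whose nearest relative was Olfr374 on chromosome 8 at 70.2% identity. In the larger cluster the nearest relative lay in that cluster for 88 of the 95 genes with a match over at least 80% of the coding sequence. Of the other 7, 5 were nearest to a chromosome 9 gene with a pseudogene symbol, which is no member, and 2 to a gene on another chromosome. No gene had its nearest relative in the other cluster. Median identity to the nearest relative was 82.0% in the smaller cluster and 90.2% in the larger one, and 11 pairs shared at least 95%.

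Some near-identical pairs differed widely in level and others did not, such as Olfr872 and Olfr869, with 330 and 306 counts. The pairs shown were chosen because their members differed widely. The first 75 coding bases of 4 pairs are given 5′ to 3′ from GENCODE vM21 on GRCm38, with capitals at the bases that differ within the pair. Olfr160 (chr9:37712203-37712277, minus strand) and Olfr151 (chr9:37730907-37730981, minus strand) are the genes of the receptors known as M72 and M71, which have been used to follow axons to single glomeruli. The Olfr151 sequence shown is that of a polymorphic pseudogene in GENCODE. Its coding sequence of 929 bases is not a whole number of codons, and its alignment to Olfr160 has 4 gap bases. Olfr832 (chr9:18944650-18944724, plus strand) and Olfr834 (chr9:18987990-18988064, plus strand) are a pair of the smaller cluster. Olfr924 (chr9:38848116-38848190, plus strand) and Olfr926 (chr9:38877178-38877252, plus strand) are from the larger cluster, as are Olfr955 (chr9:39470650-39470724, minus strand) and Olfr952 (chr9:39426995-39427069, minus strand).
Olfr160: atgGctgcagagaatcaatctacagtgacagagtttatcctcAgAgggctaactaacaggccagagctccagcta
Olfr151: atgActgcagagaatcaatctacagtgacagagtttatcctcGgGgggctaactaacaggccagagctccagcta
Olfr832: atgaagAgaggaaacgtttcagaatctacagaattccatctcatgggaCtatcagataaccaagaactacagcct
Olfr834: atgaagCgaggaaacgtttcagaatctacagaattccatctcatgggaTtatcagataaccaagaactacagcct
Olfr924: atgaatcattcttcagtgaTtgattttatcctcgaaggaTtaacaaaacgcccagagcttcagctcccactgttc
Olfr926: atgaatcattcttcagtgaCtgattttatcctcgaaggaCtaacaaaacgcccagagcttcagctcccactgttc
Olfr955: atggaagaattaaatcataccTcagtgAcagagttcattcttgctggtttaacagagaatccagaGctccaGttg
Olfr952: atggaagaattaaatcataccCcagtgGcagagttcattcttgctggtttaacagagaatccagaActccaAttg
Over the 7 libraries Olfr160 had 274 counts and Olfr151 had 12. Olfr832 had 548 counts and Olfr834 had 0. Olfr924 had 554 counts and Olfr926 had 3, and Olfr955 had 131 counts and Olfr952 had 1. Within each pair shown the gene with fewer counts was close to or at 0. A total of 0 allows up to 3 counts at 95% confidence, counting error only.

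In 5 of the 11 pairs one gene had more than 10 times the counts of the other. Olfr859 and Olfr58 are the fifth such pair, with 1584 and 124 counts. In those 5 pairs, as in the rest, the runs of identical coding sequence were short of the whole gene, with a longest shared run of 79 to 299 bases over the 11 pairs. The authors' gene counts leave out reads that map to more than 1 place, 14.5 to 19.6% of all reads, and the part of such reads in these differences was not tested. The deposited TPM values, a level scaled for transcript length and library size that RSEM estimated, averaged 1.78 for Olfr160 and 0.0986 for Olfr151, 1.90 for Olfr832 and 0 for Olfr834, 2.95 for Olfr924 and 0.050 for Olfr926, and 1.98 for Olfr955 and 0.0143 for Olfr952.

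**Figure D1:**
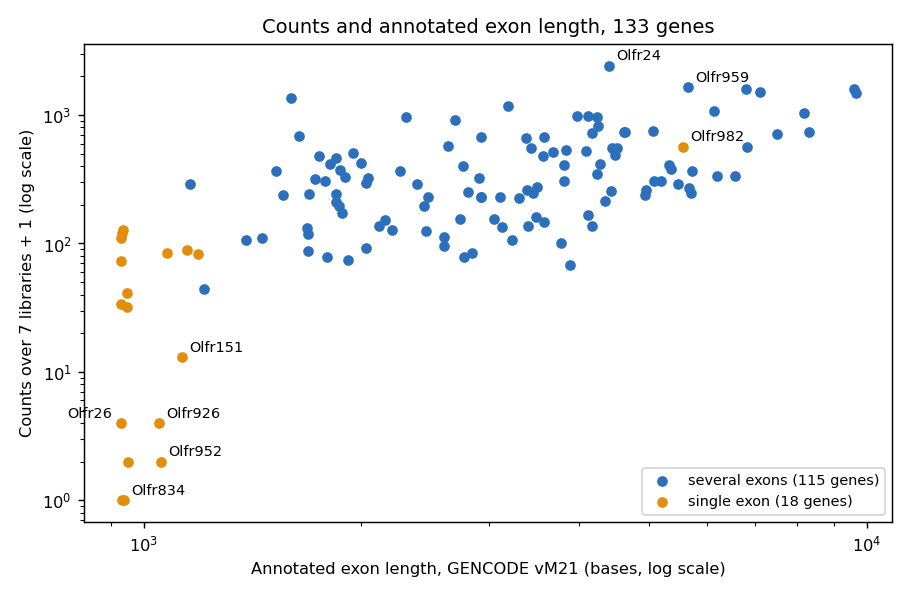
Counts of each gene summed over the 7 libraries, plus 1, against its annotated exon length in GENCODE vM21, both on log scales, for 133 genes. The 18 genes with a single annotated exon lie at the left and bottom with a median of 36.5 counts, and the 115 genes with several exons have a median of 307 counts; Olfr982 is the single-exon gene with a long model and 565 counts.

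Annotated gene structure went with level. The 18 genes with a single-exon model had a median of 36.5 counts over 7 libraries and a median TPM of 0.411. The 115 genes with several annotated exons had a median of 307 counts and a median TPM of 1.62, so the gap was also seen on the scale corrected for length. Median exon length was 948 bases in the single-exon models, close to a coding sequence alone, and 3299 bases in the others. Of the near-identical pairs, the gene with fewer counts had a single-exon model in 5, and the gene with more counts in 0. Reads from exons that a model lacks are not counted for its gene, and their part in the low counts was not tested.

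Every library detected most of the clusters. Of the 134 rows, 128, 128 and 129 had at least 1 count in neo, 127 in each KO library and 131 in WT. Olfr834 and both rows of Olfr908 had 0 counts in all 7 libraries. Both Olfr908 rows lie at chr9:38516034-38516965, so a read there could count as ambiguous and be left out, which was not tested. The median gene had a mean TPM of 1.86 in the smaller cluster and 1.14 in the larger one, and 78 of 134 genes averaged above 1 TPM. Receptor use was spread rather than dominated by a few genes. The 10 genes with most counts took 26.8 to 30.9% of the clusters' counts in a library, and 23 to 26 genes were needed for 50%.

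Olfr969, in the larger cluster, had the highest TPM of all members in every library, with 14.7, 11.6 and 13.1 TPM in neo, 10.6, 6.69 and 7.10 TPM in KO and 10.3 TPM in WT. All neo values lay above all KO values. Olfr24 (8.29, 6.17 and 8.30 TPM in neo, 7.88, 5.31 and 6.18 in KO and 6.03 in WT) was second by mean TPM and had the most counts in every library, 2420 in all. Its neo and KO values overlapped. Next came Olfr1537 with a mean of 5.72 TPM, Olfr857 with 5.26, Olfr972 with 5.07, Olfr835 with 4.25, Olfr146 with 4.17 and Olfr884 with 4.12. Each gene in this order overlapped the next in its range over libraries. Among the tested genes, the lowest were Olfr862, at 0.394 TPM, in the smaller cluster and Olfr148, at 0.381 TPM, in the larger one.

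**Figure D2:**
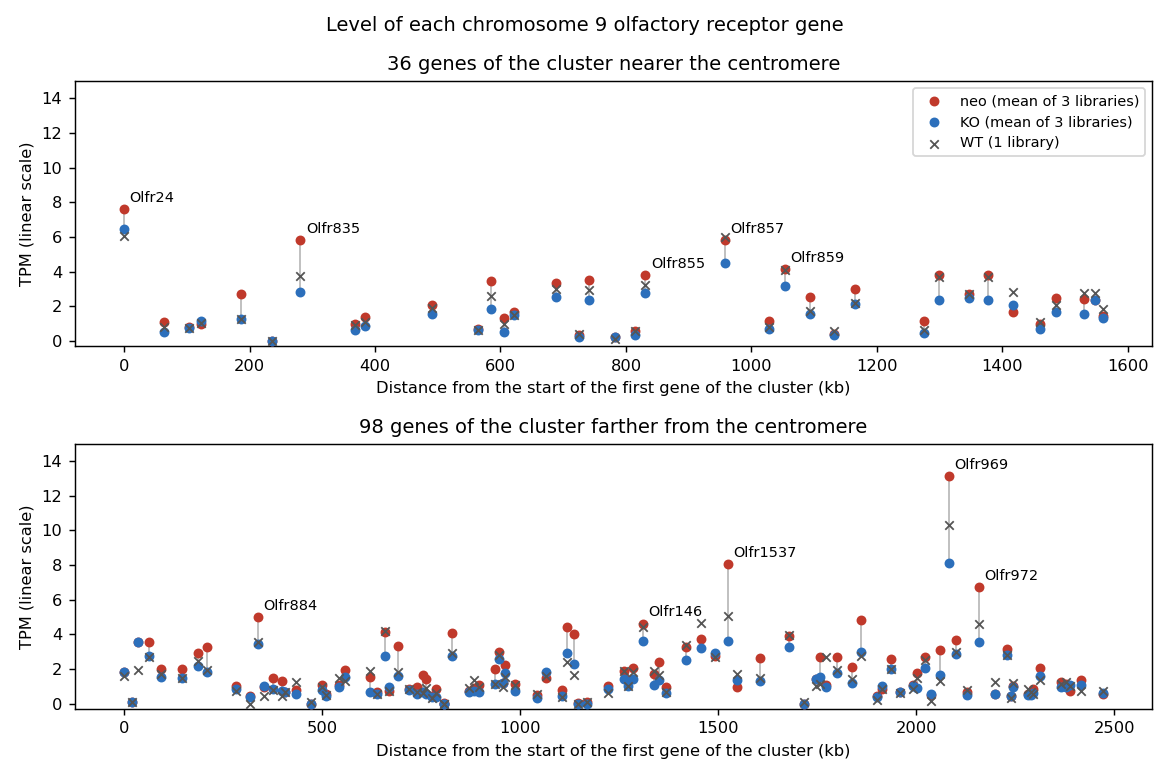
Mean TPM of each gene against the distance of its start from the first gene of its cluster, with neo and KO as means of 3 libraries and WT as 1 library, and a grey line joining neo and KO. High and low genes are intermixed along both clusters; Olfr969 stands highest at 13.1 TPM in neo and 8.14 TPM in KO.

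The order of the genes by TPM was close to the same in every library. Spearman's rho over the 134 rows was 0.868 to 0.931 between libraries of a genotype and 0.849 to 0.912 between libraries of different genotypes. This is a description across genes, which share gene length and annotation between libraries.

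Promoter windows could be shown for few members. RefSeq (GRCm38.p6) gave windows of 300 bases, 250 before and 50 after an annotated start, for 107 of the 134 genes. These starts lay a median of 1033 bases inside the GENCODE gene. Only 24 windows had their annotated start within 100 bases of the GENCODE start, and 16 of these windows held no coding sequence. Motifs searched on both strands were TAATTA and TAATGA, cores of the kind that LIM and other homeodomain factors bind, TCCCNNGG, the core of Olf/EBF sites, and TATAAA. Matches of different motifs may share bases, each motif was counted on its own, and a match is only a run of letters. Of the 16 windows, 5 held TAATTA, 6 TAATGA, 3 TCCCNNGG and 7 TATAAA. Of all RefSeq windows of this length, 5.29% held TAATTA, 9.78% TAATGA, 22.6% TCCCNNGG and 13.6% TATAAA. These windows have no filter on start or coding sequence. Without such a filter, the 108 windows of the members held TAATTA in 25.9%, TAATGA in 25.9%, TCCCNNGG in 5.56% and TATAAA in 45.4%, and the windows of receptor genes on other chromosomes in 17.7, 29.1, 10.4 and 40.7%.

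Of those 16 windows, the ones shown belong to the most abundant gene of each cluster by TPM, Olfr868 (chr9:20098376-20098675, plus strand) and Olfr943 (chr9:39166060-39166359, plus strand), and to Olfr27 (chr9:39127917-39128216, plus strand), a neighbour of Olfr943. Capitals mark TAATTA and TAATGA on either strand.
Olfr868: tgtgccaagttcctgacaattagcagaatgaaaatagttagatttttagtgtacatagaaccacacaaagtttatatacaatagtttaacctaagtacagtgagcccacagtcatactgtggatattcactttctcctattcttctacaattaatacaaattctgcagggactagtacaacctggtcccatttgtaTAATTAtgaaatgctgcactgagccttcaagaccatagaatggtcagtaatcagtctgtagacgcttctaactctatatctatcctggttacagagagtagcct
Olfr943: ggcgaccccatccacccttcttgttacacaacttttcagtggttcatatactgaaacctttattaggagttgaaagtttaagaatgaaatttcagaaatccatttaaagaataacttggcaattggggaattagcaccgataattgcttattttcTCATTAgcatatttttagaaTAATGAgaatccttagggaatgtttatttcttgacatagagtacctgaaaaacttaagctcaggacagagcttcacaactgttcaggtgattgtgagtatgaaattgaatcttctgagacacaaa
Olfr27: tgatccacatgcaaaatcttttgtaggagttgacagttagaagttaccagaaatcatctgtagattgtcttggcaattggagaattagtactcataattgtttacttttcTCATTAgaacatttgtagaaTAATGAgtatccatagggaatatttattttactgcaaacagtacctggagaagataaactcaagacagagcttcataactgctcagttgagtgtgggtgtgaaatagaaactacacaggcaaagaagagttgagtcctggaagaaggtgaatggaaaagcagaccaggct
The windows of Olfr943 and Olfr27 aligned over 254 bases with 197 identical (77.6%), and each held 2 matches to TAATGA. Olfr943 averaged 3.64 TPM, Olfr27 2.97 TPM and Olfr868 2.62 TPM.

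Summed over each cluster, neo averaged above KO, with WT between the group means. The smaller cluster summed to 181, 152 and 159 CPM in neo (164 ± 14.8, SD, n = 3), 151, 123 and 105 CPM in KO (126 ± 23.2, SD, n = 3) and 143 CPM in WT. The larger cluster summed to 333, 293 and 275 CPM in neo (300.5 ± 29.8, SD, n = 3), 276, 202 and 207 CPM in KO (228 ± 41.3, SD, n = 3) and 243 CPM in WT. KO replicate 1 was just above the lowest neo library in the larger cluster and just below it in the smaller one, and the other KO libraries lay below all neo libraries. Neo was 1.31 times KO over all 134 genes, 1.24 times without neo replicate 1, the library with Xist, and 1.46 times without KO replicate 1. These sums have no test of their own.

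**Figure D3:**
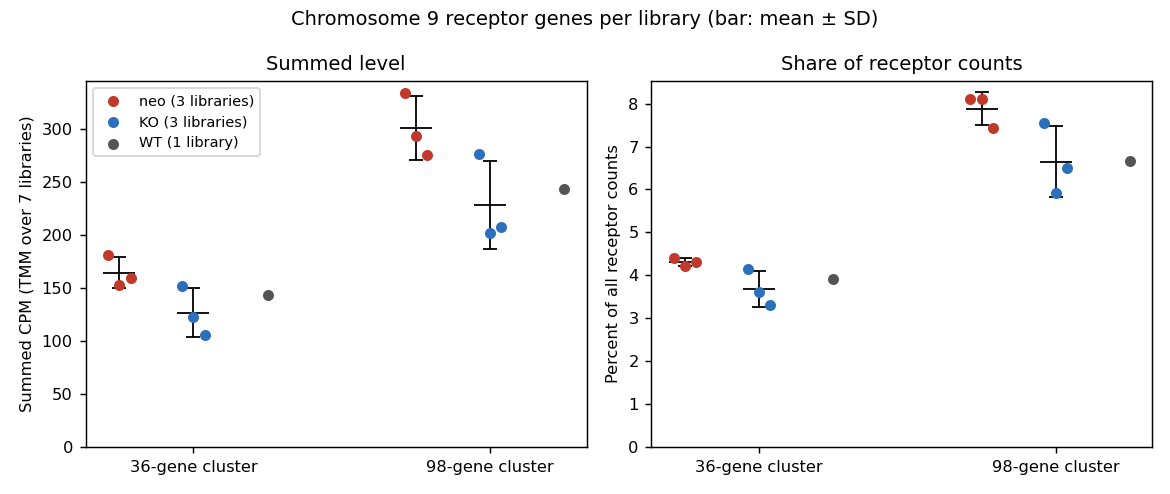
Summed CPM of each cluster (left) and its percentage of all olfactory receptor counts (right) per library, with neo left of KO left of WT and bars at the mean ± SD of 3 libraries. Neo libraries lie at 275 to 333 CPM and KO libraries at 202 to 276 CPM in the 98-gene cluster.

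The chromosome 9 genes also held a larger mean share of the receptor counts in neo, with 12.5, 12.3 and 11.7% of all olfactory receptor counts in neo (12.2 ± 0.406, SD, n = 3), 11.7, 9.52 and 9.79% in KO (10.3 ± 1.19, SD, n = 3) and 10.6% in WT. KO replicate 1, at 11.70% (95% Wilson interval 11.44 to 11.96, counting error only), cannot be separated from neo replicate 3, at 11.74% (11.47 to 12.01), while the other KO libraries lay below every neo library. The log2 ratio of neo to KO was 0.24, against an SD between replicates of 0.12 on that scale. The balance between the clusters was similar in all libraries, and the smaller one held 35.2, 34.2 and 36.7% of the members' counts in neo, 35.4, 37.9 and 33.7% in KO and 37.0% in WT. That split overlapped between genotypes.

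The mature neuron markers given above also lay higher in neo than in KO, without overlap. All 8 mature olfactory neuron markers had a positive log2 fold change of neo over KO (median 0.22), with 2, Stoml3 and Umodl1, higher at an unadjusted p under 0.05 and 0 past the adjusted threshold in edgeR. Among all genes 4.59% were higher and 4.72% lower at that p. In the other marker lists Trp63 (basal) and Sox2 (sustentacular) were higher in neo at that p, Gap43 (immature neuron) and Sox10 (ensheathing glia) were lower, and none passed the adjusted threshold in edgeR. Per 1000 counts of those markers, chromosome 9 receptor genes had 141, 108 and 119 counts in neo, 122, 103 and 101 in KO and 108 in WT. On that scale neo and KO overlapped. Immature neuron markers summed to 1557 to 1878 CPM in neo, 1818 to 2034 CPM in KO and 2008 CPM in WT. Basal and precursor cell markers summed to 214 to 252 CPM in neo, 174 to 193 CPM in KO and 186 CPM in WT. Sustentacular cell markers summed to 1448 to 1634 CPM in neo, 1176 to 1577 CPM in KO and 1720 CPM in WT, and respiratory ciliated cell markers to 142 to 318, 196 to 353 and 259 CPM in the same order. Neo and KO did not overlap for the basal list, and they overlapped for the immature neuron, sustentacular and ciliated lists. Ensheathing glia markers stood at 126 to 134 CPM in neo, 121 to 416 CPM in KO, where replicate 3 was high, and 119 CPM in WT. Of the vomeronasal neuron markers 1 of 2 was at 0 in all libraries and the sum was at most 3.86 CPM, and blood markers summed to 171 to 343 CPM. The part of cell makeup in the receptor differences was not tested.

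Gene by gene, no member passed the adjusted threshold between neo and KO. In the edgeR quasi-likelihood test over all 17638 genes tested, 119 members were tested, 31 and 88 of the 2 clusters, and 0 had an adjusted p under 0.05; over all genes 0.00567% were called higher and 0.0113% lower. The lowest adjusted p among members was 0.361 in edgeR, for Olfr1537. At an unadjusted p under 0.05, 27 members were higher in neo and 0 lower, against 4.59% of all genes higher and 4.72% lower, and against 11.9% and 5.15% of the 854 other receptor genes tested. DESeq2 called 1 member, Olfr1537, at an adjusted p of 0.0415, where 0.506% of all genes were called. In the comparison deposited by the authors (the authors' deposited table), none of its 122 members had an adjusted p under 0.05 (lowest 0.0734, Olfr1537), where 0.429% of genes did, and 20 members had an unadjusted p under 0.05, all higher in neo, where 2.17% of genes were.

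The direction was shared across most of the members. Of the 119, 102 had a positive log2 fold change of neo over KO, and the median was 0.36. Among the other receptor genes 71.9% were positive with a median of 0.24, and among all genes 49.6% with a median of -0.00. Without overlap between neo and KO libraries, 31 members were higher in neo and 0 lower, against 17% and 5.27% of other receptor genes and 7.59% and 7.98% of all genes. By cluster, the median was 0.35 with 9 of 31 genes at an unadjusted p under 0.05 in the smaller cluster, and 0.37 with 18 of 88 in the larger one. By chromosome, chromosome 4 had the highest median of the receptor genes, 0.45 over 20 tested genes, and chromosome 9 was second of 17. Of the 9 chromosomes with at least 30 tested receptor genes, chromosome 9 came first, ahead of chromosome 14 at 0.32 and chromosome 19 at 0.30. The order of chromosomes was not tested.

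Olfr1537, in the larger cluster, had the smallest p. It had 8.48, 9.69 and 11.3 CPM in neo, 5.39, 5.09 and 6.02 CPM in KO and 6.99 CPM in WT, with a log2 fold change of neo over KO of 0.83 (SE 0.18). Neo and KO did not overlap, and WT lay between them. Its coding sequence is 95.1% identical to that of Olfr27, with a longest shared run of 86 bases, and the part of reads that match both genes in its counts was not tested. Olfr27 had a log2 fold change of 0.36 (SE 0.31).

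Olfr904, Olfr836, Olfr845 and Olfr972 follow by p, and none passed the adjusted threshold. Olfr904, also of the larger cluster, had 3.11, 3.71 and 3.46 CPM in neo, 2.08, 1.29 and 1.49 CPM in KO and 1.47 CPM in WT, with a log2 fold change of 1.08 (SE 0.26), the largest of the members. Its WT library lay among the KO libraries. Olfr836, of the smaller cluster, had 3.02, 2.75 and 3.19 CPM in neo, 1.41, 1.61 and 1.66 CPM in KO and 2.71 CPM in WT, a log2 fold change of 0.94 (SE 0.23). Here WT lay just under the neo libraries. Olfr845 (7.54, 7.36 and 5.39 CPM in neo, 4.35, 3.43 and 3.70 in KO and 4.19 in WT) and Olfr972 (7.71, 6.40 and 5.65 CPM in neo, 3.55, 3.97 and 4.37 in KO and 4.88 in WT) had log2 fold changes of 0.83 (SE 0.21) and 0.74 (SE 0.20). In all 4 genes every neo library was above every KO library.

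**Figure D4:**
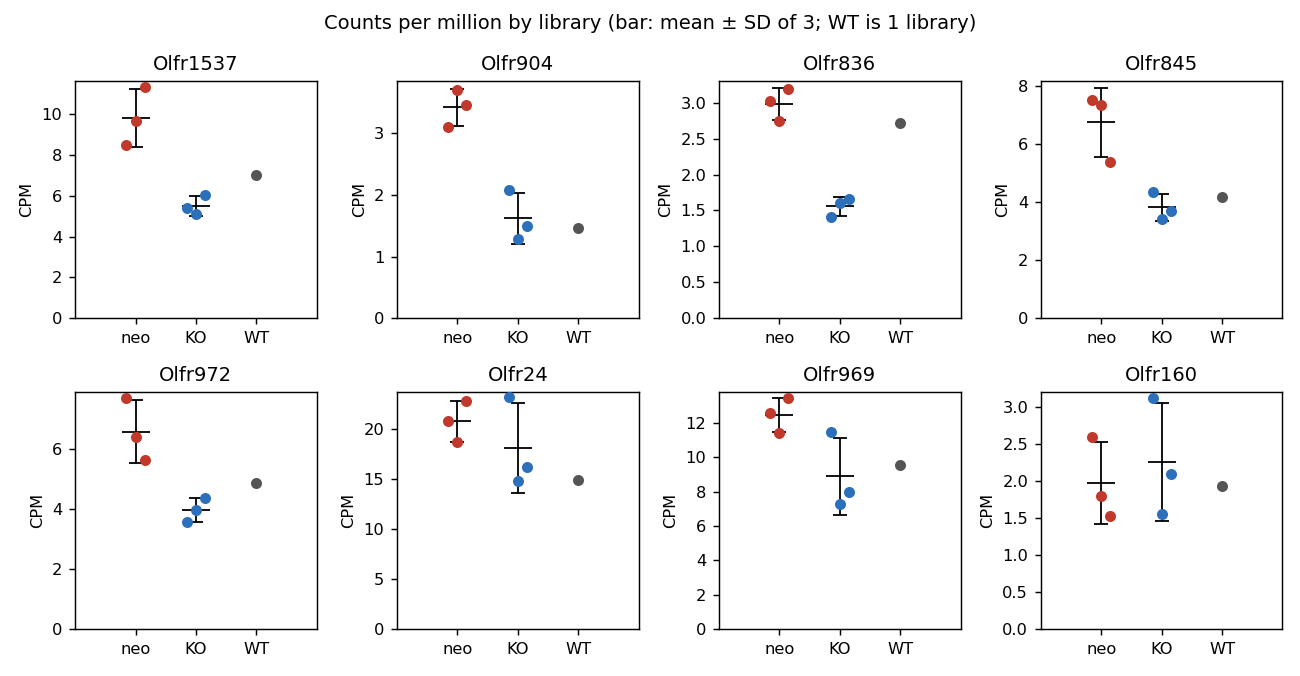
CPM per library of 5 genes with the smallest p between neo and KO, and of Olfr24, Olfr969 and Olfr160, each panel starting at 0, with bars at the mean ± SD of 3 libraries and WT as 1 library. The first 5 panels show neo above KO without overlap, while Olfr24, Olfr969 and Olfr160 overlap.

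The well-studied Olfr160 had 2.60, 1.79 and 1.53 CPM in neo, 3.12, 1.56 and 2.10 CPM in KO and 1.93 CPM in WT. Its log2 fold change was -0.17 (SE 0.33), and neo and KO overlapped. The most negative member was Olfr984, named here after its values were seen, with 2.85, 2.15 and 2.06 CPM in neo, 4.66, 4.02 and 2.49 CPM in KO and 3.54 CPM in WT. Its log2 fold change was -0.64 (SE 0.29), its unadjusted p was 0.052 in edgeR, and neo and KO overlapped. Of the most abundant genes, Olfr969 had 12.6, 11.4 and 13.4 CPM in neo, 11.5, 7.29 and 7.96 CPM in KO and 9.57 CPM in WT, a log2 fold change of 0.49 (SE 0.19). Its highest KO library, replicate 1, lay just above its lowest neo library in CPM. Olfr24 had a log2 fold change of 0.20 (SE 0.18).

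**Figure D5:**
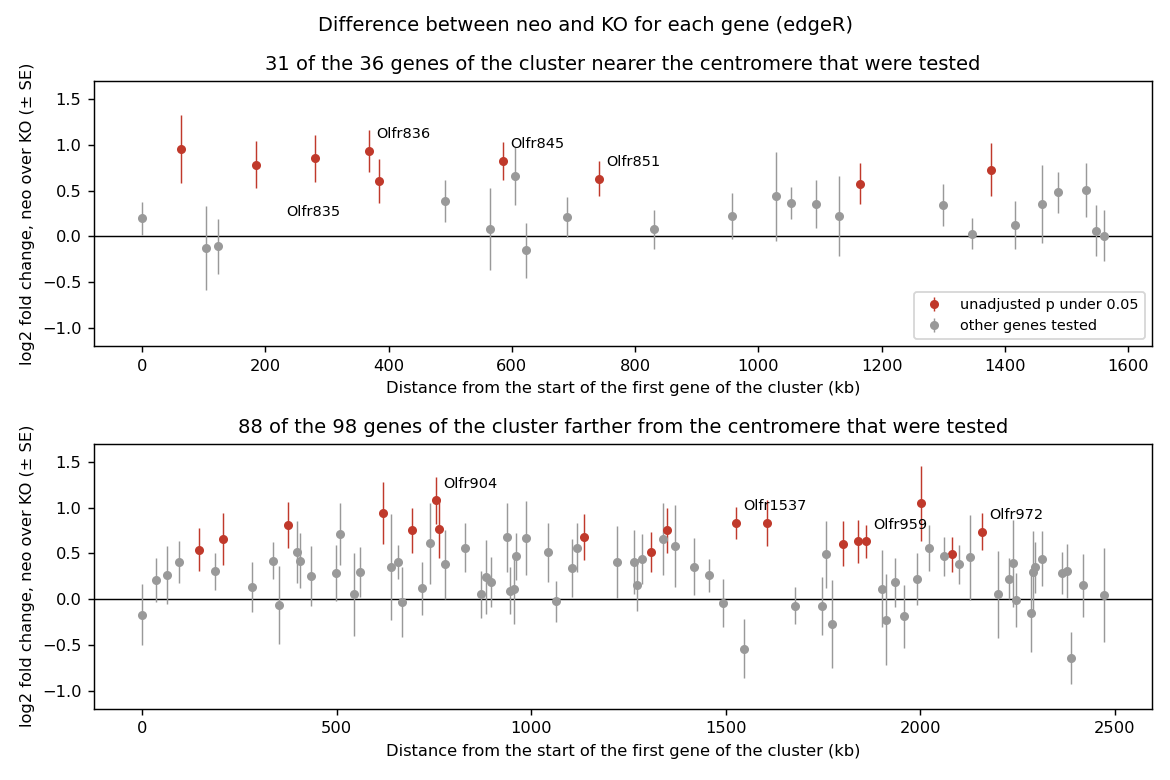
log2 fold change of neo over KO with its standard error for the 119 tested genes, against the distance of each gene's start from the first gene of its cluster. Genes at an unadjusted p under 0.05 are in red, 9 in the upper panel and 18 in the lower, all above 0 and spread along both clusters.

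Along the clusters no stretch held all the differences. In windows of 500 kb from the first gene, the smaller cluster had medians of 0.61 over 9 tested genes, 0.22 over 8, 0.35 over 11 and 0.06 over 3, with 5, 2, 2 and 0 genes at an unadjusted p under 0.05. The larger cluster had medians of 0.31 over 15 tested genes, 0.39 over 22, 0.42 over 16, 0.18 over 15 and 0.33 over 20, with 3, 4, 3, 5 and 3 such genes. All of these were higher in neo, where 4.59% of all genes and 11.9% of other receptor genes were higher at that p. The genes facing the gap between the clusters were Olfr873 and Olfr18 on one side and Olfr160 and Olfr151 on the other. Olfr873 and Olfr18 had log2 fold changes of 0.06 (SE 0.28) and 0.01 (SE 0.28), and Olfr151 was too low to test.

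Against WT the median differences were smaller than between neo and KO, and they rest on 1 library, which was assumed to vary like the others. The range over single members was not smaller. Log2 fold changes ran from -1.32 to 1.29 for neo over WT and from -1.04 to 1.17 for KO over WT. For neo over KO they ran from -0.64 to 1.08. In edgeR over 19123 genes, 0 of 122 members passed the adjusted threshold between neo and WT, where 0.00523% of all genes were called in each direction. At an unadjusted p under 0.05, 6 members were higher and 0 lower, against 1.24% and 1.72% of all genes and 2.66% and 3.66% of other receptor genes. The median log2 fold change was 0.20, with 88 of 122 positive, against 51% of all genes and 57.4% of other receptor genes. The 6 were Olfr959, Olfr904, Olfr924, Olfr922, Olfr888 and Olfr845. Between KO and WT, 0 passed the adjusted threshold in edgeR, where 0.00523% of all genes were higher and 0% lower. Unadjusted p-values under 0.05 were found for 0 members higher and 1 lower in KO, against 0.288% and 0.439% of all genes and 0.444% and 0.666% of other receptor genes. The median was -0.15, with 38 of 122 positive, against 51.7% of all genes and 38.3% of other receptor genes. That 1 gene was Olfr836, at -0.80 (SE 0.31). By cluster, 28 of 33 genes of the smaller one and 56 of 89 of the larger one had a negative log2 fold change of KO over WT, and the difference between the clusters was not tested. These comparisons share libraries with each other and with neo against KO. Xist had 13995 counts in WT and 34, 78 and 15 in KO, so sex and genotype cannot be told apart between KO and WT. The WT level lay within the range of the 6 mutant libraries for 114 of the 134 rows, above all of them for 8 and below all for 12. The same shares over all genes were not taken, so these counts have no background. Olfr891 and Olfr952 lay above on 1 WT count each, and the 3 rows at 0 in every library count as within.

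Another 15 members were too low to test between neo and KO, with 0 to 83 counts over 7 libraries. Of these, 11 have single-exon models. Olfr866 had the most counts, 83, and 7 had 3 or fewer. They are left out of the counts of positive fold changes above.

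Among genes that act with the receptors, none passed the adjusted threshold. Of 16 genes of odorant signal transduction, 14 had a positive log2 fold change of neo over KO, with a median of 0.13. Gnal, Adcy3, Cnga2, Ano2 and Omp of this list are also among the mature neuron markers above. Among all genes 49.6% were positive. In edgeR 2 were higher at an unadjusted p under 0.05 and 0 lower, where 4.59% of all genes were higher and 4.72% lower, and 0 passed the adjusted threshold. Ric8b, an exchange factor for the olfactory G protein, had 314, 316 and 301 CPM in neo, 256, 240 and 267 CPM in KO and 255 CPM in WT, with a log2 fold change of 0.29 (SE 0.09). Slc24a4, the sodium-calcium exchanger that ends the response, had a log2 fold change of 0.37 (SE 0.14). Of 22 genes of receptor transport and receptor choice, 14 were positive with a median of 0.07, against 49.6% positive among all genes. Rtp1 of this list is also a mature neuron marker. In edgeR 1 of the 22 was higher and 1 was lower before adjustment at p under 0.05, a share near that of all genes (4.59% higher, 4.72% lower), and 0 passed the adjusted threshold.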

How the data were processed

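Whole-number gene counts were deposited by the authors, per the file headers, with Trimmomatic 0.35, STAR 2.5.1b and GRCm38 named in the submitters' processing notes, with stranded counting per the name of the table. The authors also deposited TPM values, RSEM estimates per the file headers and processing notes, and a DESeq2 1.18.1 comparison of KO with neo whose log2 fold changes and p-values are used only where named. The sources used here give no steps for multimapping reads beyond a separate row, which, with unmapped, ambiguous and featureless reads, was left out of library sizes.

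Counts of all genes were tested two-sided with edgeR 4.0.16 (TMM, filterByExpr at 10 counts and a total of 15, robust quasi-likelihood fit, Benjamini-Hochberg adjustment at 0.05), on 6 libraries for neo against KO and on 7 for comparisons with WT. CPM values use TMM over 7 libraries. Standard errors were taken from the F statistic. The code was tested on simulated counts. Alternatives were DESeq2 1.42.0, limma 3.58.1 on log2(TPM + 0.1) and log2(TPM + 1), RLE size factors, TMM without receptor genes, other count filters, a replicate block and leaving out each library. Coding sequences were compared with blastn 2.17.0. No pair of replicates looked like 1 library deposited more than once, since each pair differed beyond counting error (chi-square at least 9.58 per degree of freedom). That check does not show separate animals.

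The members and the gene lists were chosen with earlier results of these data known. Genes were named by rule: the 5 highest and 3 lowest by TPM per cluster, the first, last and gap-facing genes, the 5 smallest p, the genes at 0, and Olfr151 and Olfr160. Near-identical pairs, promoter examples and other genes were chosen after their values were seen.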

Additional observations from a re-analysis of the deposited data

How the results depend on the processing

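No member passed the adjusted threshold between neo and KO under any alternative in edgeR or limma; DESeq2 called 1. The number higher in neo at an unadjusted p under 0.05 was 17 with a filter of 50 counts in 3 libraries, and 13 to 40 when 1 library was left out (15 without neo replicate 1, 13 without KO replicate 2). All 27 stayed positive in each fit that tested them, and 11 kept an unadjusted p under 0.05 whichever library was left out, among them Olfr1537, Olfr904, Olfr836, Olfr845 and Olfr972. The number lower was 1 with no count filter, 1 with the replicate block and 0 to 1 when 1 library was left out. Replicate numbers did not pair the samples (correlations of same-numbered libraries -0.14, -0.05 and 0.19), and the replicate block gave 23 higher. Shares of all genes at an unadjusted p under 0.05 were not taken under these alternatives, so these counts have no background. The median log2 fold change ranged over 0.26 to 0.53 when 1 library was left out, 0.21 to 0.48 in the smaller cluster and 0.24 to 0.59 in the larger one, highest without KO replicate 1. The log2 ratio of neo to KO was 0.46 per gene count (0.30 to 0.60 when 1 library was left out) and 0.18 per mature marker count (0.07 without neo replicate 1 to 0.28 without KO replicate 1).

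Named genes near 0 changed sign. Leaving out 1 library gave -0.49 to 0.30 for Olfr829, -0.17 to 0.53 for Olfr844, -0.30 to 0.44 for Olfr862, -0.18 to 0.22 for Olfr18, -0.28 to 0.21 for Olfr873, -0.094 to 0.51 for Olfr148, -0.43 to 0.13 for Olfr160 and -0.76 to 0.42 for Olfr986. With limma on log2(TPM + 1), Olfr829 was 0.017, Olfr873 -0.022 and Olfr986 -0.067, and with log2(TPM + 0.1) Olfr873 was -0.046 and Olfr986 -0.26. With the replicate block Olfr18 was -0.0017 and Olfr986 -0.15. The causes were not tested. Low counts limit the single-exon genes, and 1 WT library limits both comparisons with it, with sex not matched between KO and WT.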
